A study of Mus musculus with 4 samples.

Results

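The citric acid cycle enzymes described here are 9 genes, Cs, Idh3a, Idh3b, Idh3g, Ogdh, Suclg1, Suclg2, Fh1 and Mdh2. They were described with all probe sets that the array annotation assigns to 1 of these symbols alone. This gave 16 of the 22626 probe sets that are not controls, 14 of them above 16 units on all arrays, and 9 of the 12393 genes with a probe set of their own. Liver RNA came from male mice of 12 to 20 weeks of age in 4 groups, PPARα-null mice (129S4/SvJae) fasted for 24 hours, wild-type mice (129S1/SvImJ) fasted for 24 hours, PPARα-null mice with food, and wild-type mice with food. The null mice lack the receptor in every tissue. The RNA of the 5 mice of a group was combined, and each of the 4 pools was measured on 1 array (Affymetrix MOE430A). Livers of both feeding states were taken near the change from dark to light. With 1 array per group no test was possible and no p-value is given. The substrain and the genotype cannot be told apart, because each genotype was of its own substrain.

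The citric acid cycle oxidizes the acetyl group of acetyl-CoA in the mitochondrial matrix and passes the electrons to the respiratory chain. In liver the acetyl-CoA comes largely from fatty acids during fasting, and the cycle also supplies oxaloacetate and malate for gluconeogenesis. Citrate synthase opens the cycle, and NAD-dependent isocitrate dehydrogenase and the 2-oxoglutarate dehydrogenase complex are its regulated oxidative steps. Succinyl-CoA ligase, succinate dehydrogenase, fumarase and malate dehydrogenase then regenerate oxaloacetate. PPARα is a nuclear receptor for fatty acids that governs much of hepatic fatty acid catabolism.

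The values are intensities that the authors computed with GCRMA, in linear units, and differences are given on the log2 scale. A gene was represented by its brightest probe set over the 4 arrays, and a difference of 1.5-fold or more, which is 0.58 on the log2 scale, was counted as past the threshold. Values under 16 units were set to that floor. The median intensity lay between 14.4 and 14.6 units on the 4 arrays. As the only measure of scatter in a series without replicates, different probe sets of the same gene were compared, over 861 genes. Their log2 differences varied with a SD of 0.299 between the fasted arrays and 0.192 between the fed arrays. The SD was 0.238 for fasted against fed wild-type liver, 0.368 for fasted against fed PPARα-null liver, and 0.341 for the difference between these responses. It measures disagreement of probe sets within arrays and not variation between mice.

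Ppara, the targeted gene, was lower in both null pools. It read 16.3 units in fasted null and 755 units in fasted wild-type liver, and 104 units in fed null and 583 units in fed wild-type liver. All 5 measured hepatocyte markers were bright, with a summed intensity of 76201 units in fasted null, 67672 in fasted wild-type, 60825 in fed null and 61794 in fed wild-type liver. Markers of other cells differed between the pools. The summed level of 8 markers of Kupffer cells and macrophages was 760 units in fasted null, 357 in fasted wild-type, 661 in fed null and 591 in fed wild-type liver, with Cd68 under the floor on all arrays. For 6 markers of stellate cells and fibroblasts the sums were 839, 329, 774 and 432 units in the same order. Des was under the floor in every probe set and Col1a1 in the brightest. Vim made up most of each sum, with 728, 253, 522 and 315 units in its brightest probe set. By that probe set Vim was 2.87-fold higher in the null pool of the fasted pair. By its dimmer probe sets, which read at most 33.1 units, it was 1.42-fold and 1.2-fold higher. These sums thus rest largely on 1 probe set. For 4 endothelial markers the sums were 686, 360, 249 and 292 units, with Pecam1 under the floor. Stab2 made up most of them, with 637, 314, 203 and 250 units. Kdr was lower in fasted null (16.9 units) than in fasted wild-type liver (19.4 units). The 4 markers of exocrine pancreas with a probe set summed to 97.5 units in fasted null, 97.4 in fasted wild-type, 863 in fed null and 614 in fed wild-type liver, of which Cela1 made up most and Cpa1 was under the floor. The 3 lymphocyte, 3 neutrophil and 4 cholangiocyte markers with a probe set summed to at most 60.2 units on any array, with Cd3e, Cd79a, S100a8, Ngp, Krt19, Krt7 and Epcam under the floor. The 2 erythroid markers summed to 427 units in fasted null, 202 in fasted wild-type, 756 in fed null and 472 in fed wild-type liver, with Hba-a1 under the floor, and so was the adipocyte marker Adipoq. The part of these markers in the results was not tested, and in bulk liver fewer cells of a type and less RNA per cell cannot be told apart.

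Promoter sequence was examined because PPARα binds a direct repeat of the hexamer AGGTCA with a spacer of 1 base. RefSeq promoter windows of 300 bases, from 250 bases before to 50 bases after an annotated start (GRCm38.p6), matched 8 of the 9 genes, all but Idh3a, with 13 windows in all. The full repeat AGGTCANAGGTCA, searched on both strands, was in 0 of the 13 windows and in 0.0396% of the 32851 windows of all genes. The lone hexamer AGGTCA, which the repeat contains, was found on either strand in 3 of the 13 windows and in 16.3% of all windows. The 3 belong to Fh1, Idh3g and Ogdh (1 of its 6 windows, some of which overlap). In Idh3g and Ogdh the match was not wholly within the 250 bases before the start. The 250 bases before the start are printed for Fh1, Suclg1, Suclg2 and Cs, the 4 members whose fasting response differed most between genotypes. They lie at chr1:175625636-175625885 on the minus strand, chr6:73248255-73248504 on the plus strand, chr6:95718847-95719096 on the minus strand and chr10:128337477-128337726 on the plus strand. They are written 5′ to 3′ along the gene, and capitals mark the hexamer, which in Fh1 is read on the opposite strand and starts 188 bases before the start site. A match of letters describes the sequence and is not a binding site. Nor does a missing match show that a gene lacks a site, because only the exact letters within 300 bases were searched.
Fh1: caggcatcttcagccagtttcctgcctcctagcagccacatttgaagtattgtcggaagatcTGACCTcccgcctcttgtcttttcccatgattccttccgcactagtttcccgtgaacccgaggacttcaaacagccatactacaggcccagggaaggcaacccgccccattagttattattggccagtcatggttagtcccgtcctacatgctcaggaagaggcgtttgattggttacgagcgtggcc
Suclg1: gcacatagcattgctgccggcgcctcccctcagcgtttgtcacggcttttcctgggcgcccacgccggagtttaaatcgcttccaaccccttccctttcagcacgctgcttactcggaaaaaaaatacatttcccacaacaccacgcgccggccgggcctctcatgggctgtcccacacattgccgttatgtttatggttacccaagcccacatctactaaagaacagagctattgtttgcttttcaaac
Suclg2: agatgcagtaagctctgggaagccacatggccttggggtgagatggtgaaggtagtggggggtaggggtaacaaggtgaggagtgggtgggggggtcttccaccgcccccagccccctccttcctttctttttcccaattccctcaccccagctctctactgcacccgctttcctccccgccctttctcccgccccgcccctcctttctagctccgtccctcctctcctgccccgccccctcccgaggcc
Cs: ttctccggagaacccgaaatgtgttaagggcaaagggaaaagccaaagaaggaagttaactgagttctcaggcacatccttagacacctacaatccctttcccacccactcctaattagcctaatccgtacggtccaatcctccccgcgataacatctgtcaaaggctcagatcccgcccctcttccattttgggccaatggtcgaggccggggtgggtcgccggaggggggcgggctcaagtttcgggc

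In fasted PPARα-null compared with fasted wild-type liver, the comparison that asked which genes depend on PPARα in fasting, 1 of the 9 members was past the threshold. Suclg1 was 1.75-fold lower in the null pool, and 0 members were 1.5-fold higher in their brightest probe set. Here and in all comparisons, Suclg1, Suclg2, Fh1 and Ogdh rest on 1 probe set each, with no other to compare. Of all 6947 measured genes 13.6% were past the threshold on the lower side and 8.58% on the higher side, so the members' count was close to the background. The median log2 difference of the members was -0.10, beside -0.01 for all measured genes and -0.05 for the 2931 genes at 64 units or more on all arrays. With the arrays centred on bright probe sets the median of all genes moved from -0.01 to 0.10 and that of the members to 0.05. The balance of directions over all genes also depends on this scaling, with 61.4% of the genes past the threshold lower as deposited and 44.9% after centring.

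The members did not move as 1 group between the fasted pools. They ranged from -0.81 for Suclg1 to 0.50 for Cs, and their SD of 0.40 exceeded that between probe sets of a gene. Of the 9 members 4 differed by more than that scatter. The share of all genes beyond it and the SD over all genes were not computed, so neither value sets the members apart. Suclg1 encodes the α subunit shared by both forms of succinyl-CoA ligase, and it read 981 units in fasted null against 1719 units in fasted wild-type liver. Suclg2 encodes the β subunit of the GTP-forming ligase, and it read 700 units in fasted null against 954 units in fasted wild-type liver, a log2 difference of -0.45. Both subunits of this enzyme thus had their lowest value of the 4 arrays in fasted null liver and their highest in fasted wild-type liver.

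Fh1 and Cs differed in the opposite direction. Fh1, the gene of fumarase, read 3430 units in fasted null and 2659 units in fasted wild-type liver, a log2 difference of 0.37. Cs, the gene of citrate synthase, has 3 probe sets. The brightest over the arrays read 1099 units in fasted null and 778 units in fasted wild-type liver, or 1.41-fold higher. The other probe sets of Cs were past the threshold. They read 1504 against 709 units and 692 against 339 units, or 2.12-fold and 2.04-fold higher in fasted null liver. All 3 probe sets therefore had their highest value in fasted null liver, but the size of the difference depended on the probe set. The gene was past the threshold when its probe sets were averaged, at 0.87 on the log2 scale, and after quantile normalization, at 0.60, or centring, at 0.65.

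The remaining members, in their brightest probe set, lay within the scatter between the fasted pools. Ogdh, which encodes the decarboxylating subunit of the 2-oxoglutarate dehydrogenase complex, read 229 units in fasted null and 277 units in fasted wild-type liver. Idh3g, a regulatory subunit of isocitrate dehydrogenase, read 608 and 731 units in its brighter and 372 and 425 units in its dimmer probe set. Both genes had a log2 difference of -0.27. Idh3a encodes the catalytic subunit and read 388 units in fasted null and 416 units in fasted wild-type liver. Mdh2, the gene of mitochondrial malate dehydrogenase, read 4321 and 4410 units in its brighter and 1634 and 1906 units in its dimmer probe set. Idh3b, the other non-catalytic subunit gene, read 2603 and 2572 units in 1 probe set but 1844 and 2378 units in the other, so its direction is not settled.

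**Figure D1:**
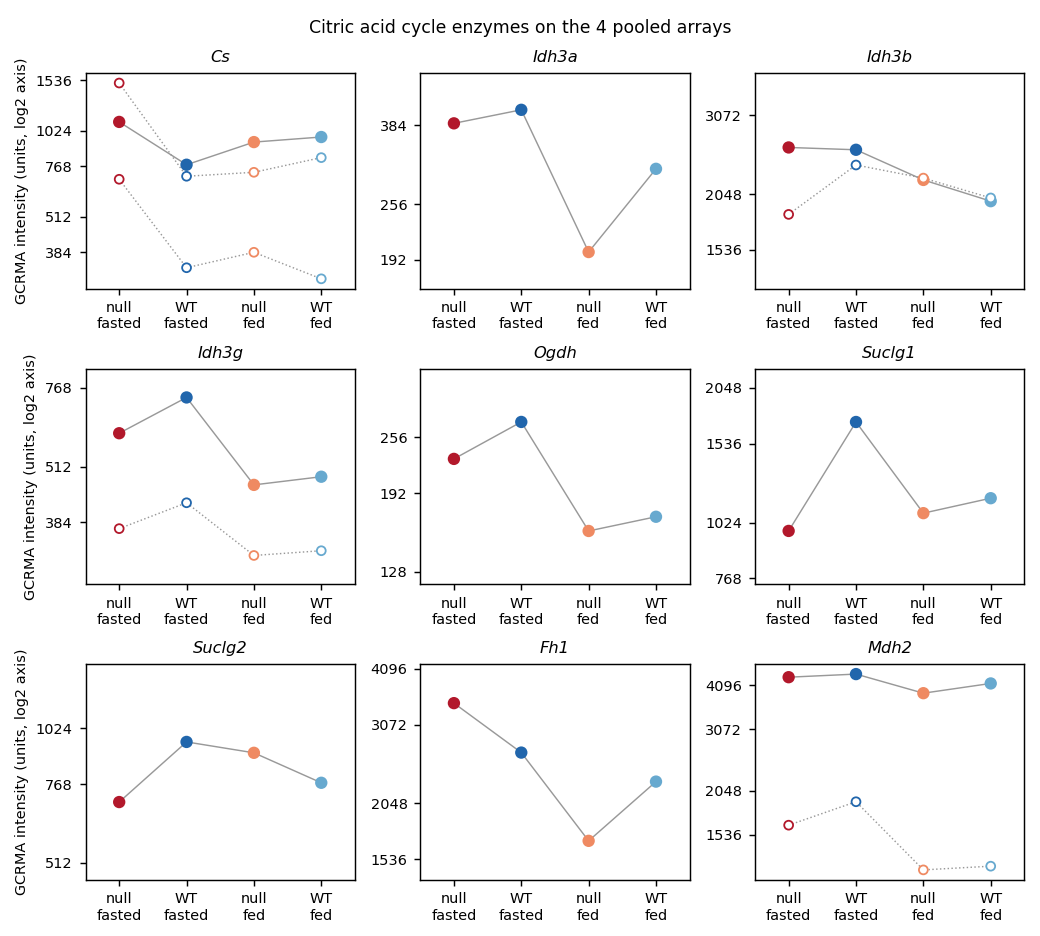
GCRMA intensity (log2 axis, each panel with its own scale) of each member on the 4 pooled arrays, PPARα-null (null) and wild-type (WT), fasted and fed, with 1 value per array and no error bars. Filled points are the probe set used for the gene, open points its other probe sets, and the lines only join the values of 1 probe set. Suclg1 stands at 1719 units in fasted wild-type liver and between 981 and 1161 units on the other arrays, whereas all 3 probe sets of Cs are highest in fasted null liver.

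In the fed state the genotypes differed less. Past the threshold, 1 of the 9 members was lower in the fed null pool and 0 were higher, while 2.12% of all measured genes were that much lower and 2.38% higher. The member past the threshold was Idh3a, which read 200 units in fed null and 307 units in fed wild-type liver, or 1.53-fold lower. It rests on 1 probe set, since the other probe sets of Idh3a read between 12.0 and 14.4 units on all arrays and could not be compared. Fh1 was next, with 1688 units in fed null and 2290 units in fed wild-type liver, a log2 difference of -0.44. Suclg2 differed by 0.22, with 902 units in fed null and 773 units in fed wild-type liver, slightly beyond the scatter of probe sets. In their brightest probe sets the other 6 members were within that scatter, between -0.11 and 0.16. Cs differed by -0.06 in its brightest probe set and by -0.17 and 0.31 in the others, the last from 384 units in fed null and 310 units in fed wild-type liver, so its direction is not settled. The dimmer probe sets of Idh3b (0.15), Idh3g (-0.04) and Mdh2 (-0.04) were also within the scatter. The median over the 9 members was -0.09 beside 0 for all measured genes.

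Food deprivation for 24 hours in wild-type liver asked how the cycle responds when the receptor is present. Of the 9 members 8 were higher in fasted than in fed wild-type liver, with a median log2 difference of 0.38, but only Ogdh and Idh3g reached 1.5-fold. Over all 6947 genes 8.2% passed the threshold on the higher side and 8.29% on the lower side, and the median was 0. Among the bright genes 10.7% were higher, and their median was 0.02. The fasted wild-type array also enters the fasted comparison of genotypes, so a high or low value on it appears in both. The members' count of 2 in 9 rests on a value close to the threshold, because Idh3g stood at 0.59 and fell under 0.58 after quantile normalization, centring or removal of an intensity trend, at 0.56 each.

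Ogdh and Idh3g had the largest values. The first read 277 units in fasted and 170 units in fed wild-type liver, or 1.63-fold higher. Idh3g read 731 and 486 units, a log2 difference of 0.59, and 425 and 332 units in the dimmer probe set, or 1.28-fold higher. Its partners had smaller differences in the same direction. Idh3a read 416 units in fasted and 307 units in fed wild-type liver, 1.35-fold higher, and the probe sets of Idh3b had log2 differences of 0.38 and 0.24. All 3 subunit genes of isocitrate dehydrogenase were therefore higher in the fasted wild-type pool. Suclg1, just under the threshold at 0.57, read 1719 and 1161 units. The log2 difference was 0.30 for Suclg2 and 0.22 for Fh1.

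Mdh2 and Cs closed the list. The brighter probe set of Mdh2 read 4410 units in fasted and 4147 units in fed wild-type liver, a log2 difference of 0.09, while the dimmer read 1906 and 1248 units, a difference of 0.61. These probe sets disagreed by more than the scatter found over all genes, and the value of Mdh2 is uncertain for that reason. Cs was the member with a lower value, at 778 units in fasted and 973 units in fed wild-type liver. Its 3 probe sets had log2 differences of -0.32, -0.22 and 0.13, so its direction in wild-type fasting is not settled either.

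Fasting in PPARα-null liver gave a SD of 0.46 among the members, against 0.31 in wild-type liver. The scatter of probe sets was larger in null liver too, at 0.368 against 0.238. Of the 9 members 7 were higher in fasted than in fed null liver, with a median of 0.24, beside -0.01 for all measured genes. At least 1.5-fold higher were 2 members, beside 12.4% of all measured genes. None of the 9 was at least 1.5-fold lower, beside 18% of all measured genes. As deposited 59.1% of the genes past the threshold were lower in fasted null liver, against 47.6% after centring. Fh1 read 3430 units in fasted null and 1688 units in fed null liver, or 2.03-fold higher, and Idh3a read 388 and 200 units, or 1.94-fold higher. Both had their lowest value of the 4 arrays in fed null liver. Ogdh (229 and 158 units) and Idh3g (608 and 466 units) had log2 differences of 0.54 and 0.38. Ogdh was past the threshold after centring, at 0.67, and after quantile normalization, at 0.60.

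The other members of the null fasting response either stayed within the scatter of 0.368 or depended on the probe set. Suclg1 read 981 units in fasted null and 1075 units in fed null liver, and Suclg2 read 700 and 902 units, with log2 differences of -0.13 and -0.37. Mdh2 differed by 0.15 and 0.42 in its probe sets, and Idh3b by 0.24 and -0.27. Cs differed by 0.23 in its brightest probe set and by 0.85 and 1.04 in the others.

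**Figure D2:**
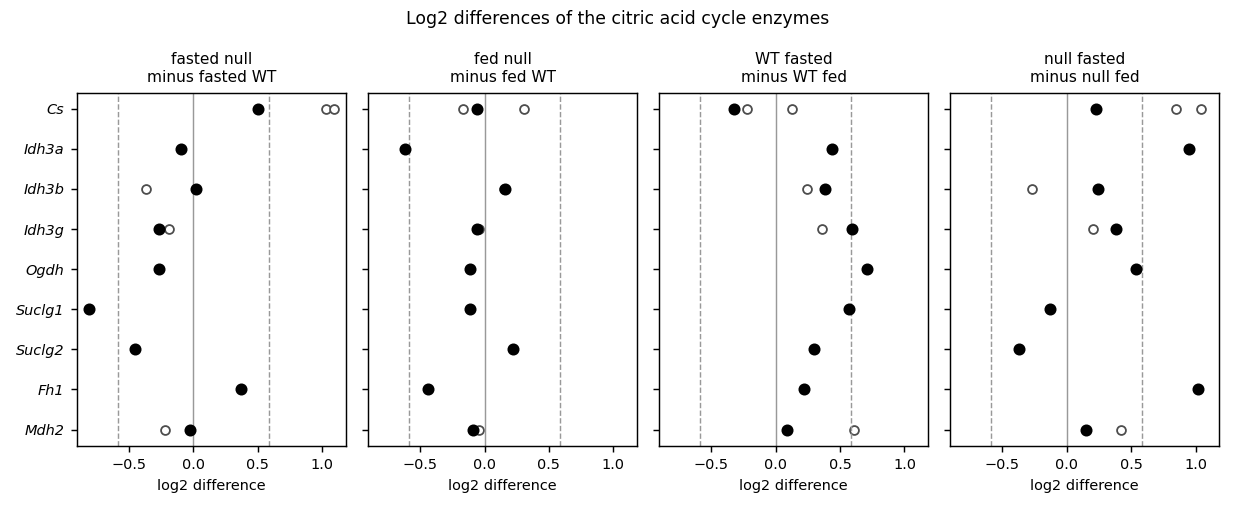
Log2 difference of each member in the 4 comparisons (filled, probe set used for the gene; open, its other probe sets), with dashed lines at 1.5-fold and no error bars because each group is 1 pooled array (null, PPARα-null; WT, wild-type). Suclg1 is past the line in the fasted comparison of genotypes at -0.81, and Fh1 and Idh3a are past it for fasting in null liver at 1.02 and 0.95.

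The response to fasting was then compared between genotypes, gene by gene, as the null response minus the wild-type response. The pair of responses shares no array. Their difference equals the fasted difference of genotypes minus the fed one, so it reuses the values above and is not separate evidence. The members differed in sign here, with 4 above 0 and 5 below, a median of -0.14 and a SD of 0.53. Of the 9 members 1 was at least 1.5-fold above, Fh1 at 0.81, beside 9.14% of all measured genes. The succinyl-CoA ligase genes Suclg1 (-0.70) and Suclg2 (-0.67) were at least 1.5-fold below, beside 14.9% of all measured genes. Counts here depend on the scaling. After centring 3 members were above (Fh1, Cs at 0.71 and Idh3a at 0.67) and 0 below, since Suclg1 stood at -0.54 and Suclg2 at -0.51. After quantile normalization 3 were above and 2 below. Over all genes past this threshold 62% were below as deposited, 43.9% after centring and 51.9% after quantile normalization.

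The middle of the order was held by genes with small differences between the responses. Idh3b (-0.14), Idh3g (-0.20), Ogdh (-0.17) and Mdh2 (0.06) lay within the scatter of probe sets, which was 0.341 for this quantity, although the dimmer probe set of Idh3b stood at -0.51. Cs stood at 0.56 in its brightest probe set and at 0.72 and 1.26 in the others. Idh3a stood at 0.52, from the 1 probe set that could be measured.

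**Figure D3:**
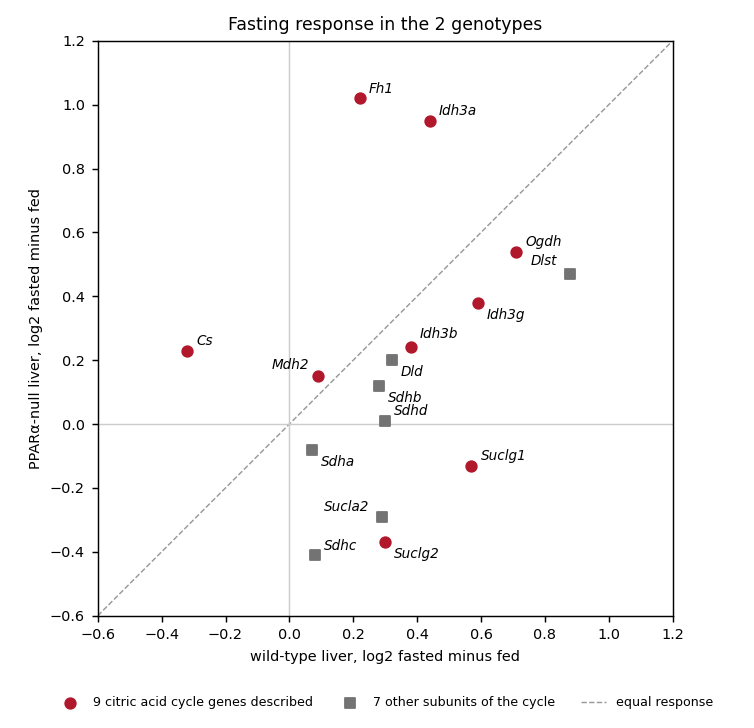
Log2 difference of fasted minus fed PPARα-null liver (vertical axis) against that of fasted minus fed wild-type liver (horizontal axis) for the 9 members (circles) and 7 other subunits of the cycle (squares), 1 pooled array per group. Fh1 at 1.02 in null and 0.22 in wild-type liver lies above the line of equal response, and Suclg1 at -0.13 in null and 0.57 in wild-type liver lies under it.

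The members were also set side by side by the shape of their profile over the 4 arrays, each centred on its own mean. Idh3g and Ogdh were the closest of the 36 pairs, with a root mean square difference of 0.0701 on the log2 scale. Both followed the same order, fasted wild-type, fasted null, fed wild-type and fed null liver from high to low. Idh3a and both probe sets of Mdh2 had this order too. Suclg1 and Suclg2 differed by 0.214, and the farthest pair was Suclg2 and Fh1 at 0.493. By the brightest probe set, the highest value was in fasted wild-type liver in 6 of the 9 members. In 3 (Cs, Idh3b and Fh1) it was in fasted null liver. The other probe set of Idh3b was instead highest in fasted wild-type (2378 units) and lowest in fasted null liver (1844 units). The lowest value was in fed null liver in 5 members. Mdh2 spanned 0.18 over the 4 arrays in its brighter probe set, less than the scatter of probe sets in any comparison. Among brightest probe sets Idh3a had the widest span, at 1.05, while the other probe sets of Cs spanned 1.16 and 1.09. Among 2922 other bright genes the profiles closest to that of Idh3a were those of Rdh9 (root mean square difference 0.0176), Slc15a4 (0.0446), Lpcat3 (0.0677), Riok3 (0.0872) and Snhg6 (0.088). With 4 arrays and this many candidates such likeness is a description.

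The remaining enzymes of the cycle were followed in 7 measured genes. Between the fasted pools the null liver had 2 of the 7 lower and 0 higher past the threshold, with a median of -0.37, beside 13.6% of all measured genes on the lower side. The count was 0 of 7 after centring, with a median of -0.22, and 1 of 7 after quantile normalization or with the mean of probe sets. Dlst, the succinyltransferase subunit of the 2-oxoglutarate dehydrogenase complex, read 764 units in fasted null and 1243 units in fasted wild-type liver, 1.63-fold lower, but its dimmer probe set read 50.6 and 54.5 units, a log2 difference of -0.11. Sucla2, the β subunit of the ATP-forming succinyl-CoA ligase, read 2775 and 4170 units, a log2 difference of -0.59. All 3 genes of succinyl-CoA ligase, Suclg1, Suclg2 and Sucla2, were thus lower in the fasted null than in the fasted wild-type pool. Suclg1 and Sucla2 passed the threshold, and Suclg2 did not. Of the succinate dehydrogenase subunits, the brightest probe sets of Sdhd (-0.49), Sdhc (-0.37), Sdha (-0.21) and Sdhb (0.01) were all under it, and the second probe sets of Sdhd (-0.21), Sdhc (-0.04) and Sdha (0.02) differed less. Dld, a subunit shared with other dehydrogenase complexes, differed by -0.19.

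Fasting in wild-type liver gave a positive difference in all 7 of these genes, with a median of 0.29, beside 0 for all measured genes. Dlst was past the threshold at 1243 units in fasted and 675 units in fed liver, though not in its dimmer probe set, at 0.25. Of all measured genes 8.2% were that much higher. Together with the 9 members, the genes of the 2-oxoglutarate dehydrogenase complex had values of 0.71 (Ogdh), 0.88 (Dlst) and 0.32 (Dld). In null liver 0 of the 7 were past the threshold in either direction, and the median was 0.01. Of all measured genes 12.4% were higher and 18% lower past it, with a median of -0.01. The difference between the responses ran from -0.58 for Sucla2 to -0.12 for Dld in the 7 genes, none past 1.5-fold, with a median of -0.29. Over all measured genes the median was -0.03, with 9.14% above and 14.9% below past 1.5-fold. The sign in the 7 genes depends on the scaling and the probe set. After centring 3 of the 7 were above 0, and the second probe sets of Sdha and Sdhd stood at 0 and 0.02. In the fed state 0 of the 7 were past the threshold, with a median of -0.07, beside 2.38% of all measured genes higher and 2.12% lower. With 7 genes these counts do not set the list apart from all genes.

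Genes around the cycle covered the entry of pyruvate, isoenzymes, anaplerosis and transport. Of 7 measured genes of pyruvate entry, Pdk4, a kinase that inhibits pyruvate dehydrogenase, read 168 units in fasted null and 41.3 units in fasted wild-type liver, and 107 units in fed null and 22.5 units in fed wild-type liver. Pdk1, another kinase of the same family, read 118 units in fasted null and 813 units in fasted wild-type liver, 6.90-fold lower. The pyruvate dehydrogenase gene Pdhb read 1108 and 1256 units, and the kinase gene Pdk2 262 and 245 units. Of 5 measured isoenzymes and relatives outside the cycle 1 was lower past the threshold between the fasted pools, beside 13.6% of all measured genes. This was Ireb2, an iron-regulatory protein gene, with 52.4 units in fasted null and 135 units in fasted wild-type liver. Idh1 (-0.48), Idh2 (-0.15) and Mdh1 (0.06), the genes of NADP-dependent isocitrate dehydrogenases and of cytosolic malate dehydrogenase, were not past the threshold.

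Of the 12 measured genes that fill or drain the cycle, 3 were lower and 1 was higher past the threshold in the fasted null pool. Their median was -0.19. Of all measured genes 13.6% were lower and 8.58% higher past the threshold in this comparison. Acly, which cleaves exported citrate, was 1.58-fold lower by the probe set used, against 1.15-fold and 1.02-fold lower by the others above the floor on all arrays. It was not past the threshold with the mean of probe sets, centring or quantile normalization. Me1, the cytosolic malic enzyme gene, was 2.10-fold lower and 1.89-fold lower in its probe sets, while Got1, a cytosolic aspartate aminotransferase gene, was 1.58-fold higher. The other lower gene was Mcee, of the propionate pathway, at -0.60, which also fell under the threshold after centring or quantile normalization. The 6 measured carrier genes had 3 lower, 1 higher and a median of -0.58, beside the same shares of all measured genes. Slc25a13, an aspartate-glutamate carrier, read 698 units in fasted null and 1855 units in fasted wild-type liver, 2.66-fold lower. The dicarboxylate carrier gene Slc25a10 was 1.91-fold lower and the oxoglutarate carrier gene Slc25a11 1.66-fold lower, which was under the threshold after centring. Between fasted and fed wild-type liver, which shares the fasted wild-type array, 4 of the 6 carrier genes were higher past the threshold and 1 was lower. Of all measured genes 8.2% were that much higher and 8.29% lower. Slc25a13, Slc25a10 and Slc25a11 were 2.41-fold, 1.72-fold and 1.63-fold higher there. The carrier gene Slc25a22 was 3.16-fold higher with fasting in wild-type and 6.4-fold higher in null liver. Its response thus differed between genotypes by 1.02, against -0.94, -0.77 and -0.81 for the other 3. Slc13a3, a plasma membrane dicarboxylate transporter gene, read 268 units in fasted null and 64.7 units in fasted wild-type liver, and 614 and 160 units in the fed pools in the same order.

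The cycle was last set beside the pathways that feed it and that it feeds. Between the fasted pools 10 of 12 genes of the mitochondrial β-oxidation cycle passed the threshold as lower in null liver and 0 as higher. Their median was -0.94. The shares of all measured genes were 13.6% lower and 8.58% higher. Hadha, the α subunit of the trifunctional protein, read 330 units in fasted null and 831 units in fasted wild-type liver, and Acadvl, very long-chain acyl-CoA dehydrogenase, read 923 and 3097 units. Of the 9 members 1 was lower, with a median of -0.10, and of 25 respiratory chain and ATP synthase genes 1 was lower (Ndufs7, -0.64) and 0 were higher, with a median of -0.08. After centring the counts lower were 9 of 12 with a median of -0.78, 1 of 9 with a median of 0.05 and 0 of 25 with a median of 0.07. The share of all measured genes that were lower was then 10.2%. Fasting in wild-type liver gave a median of 0.66 for β-oxidation, with 7 of 12 genes past the threshold as higher. The median was 0.38 for the members with 2 of 9, and 0.12 for the respiratory chain with 0 of 25. Of all measured genes 8.2% were that much higher. In null liver the medians of these lists, in the same order, were -0.12, 0.24 and 0.07. The lists were chosen with earlier results of these arrays known and the differences between them were not tested.

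**Figure D4:**
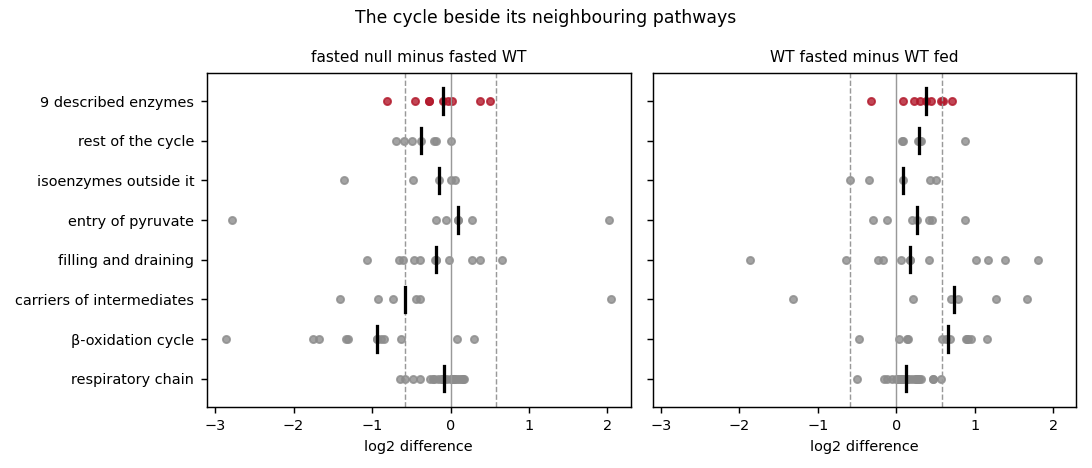
Log2 difference of every measured gene (points) and the median (black bar) of 8 gene lists, for fasted PPARα-null minus fasted wild-type liver (left) and fasted minus fed wild-type liver (right), 1 pooled array per group, with dashed lines at 1.5-fold. The bar of the 9 described enzymes stands at -0.10 on the left and 0.38 on the right, and that of β-oxidation at -0.94 and 0.66.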

How the data were processed

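Pooled liver RNA of 5 mice per group (the number in the series' design; the study's text gives a range for the pools) was hybridized to 4 MOE430A arrays. The authors deposited 1 linear intensity per probe set and array. The submitters' processing notes name GCRMA 2.20, a method that corrects background from probe sequence, normalizes quantiles and summarizes each probe set. The set of arrays in that normalization was not given in the sources used here. The arrays' scanner output was not read. Array groups were taken from the sample titles.

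The values were converted to log2, and each gene was represented by the probe set whose mean over the arrays was highest. Values under 16 units were set to that floor, and the 6947 genes above it on at least 1 array were compared. Of the probe sets, 20393 name 1 gene, 691 name several (not used) and 1606 are unnamed. All 9 member symbols matched the RefSeq table of GRCm38.p6. Following the study's methods for pools, only a fold threshold of 1.5 was applied. No test was run. Every member is named. Of the other lists, the rule named all measured genes of the cycle and up to 4 genes with the largest difference between the fasted arrays and at least 128 units on the brighter one. Members and lists were chosen with earlier results of these data known. The procedure was tested on simulated data. Alternatives were a threshold of 2, no floor or 64 units, a filter at 64 units, quantile normalization, centring on bright probe sets, lowess (fraction 0.3), leaving out suffixed probe sets, and the mean or median of probe sets. Coordinates belong to the RefSeq windows, since array values carry no build. Python 3.11.15, numpy 2.4.6, pandas 2.3.3, statsmodels 0.14.6 and matplotlib 3.10.9 were used.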

Additional observations from a re-analysis of the deposited data

Results flagged for a closer look

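For 3 of the 9 members the fasting difference had opposite signs in the genotypes, as it had in 29.3% of all 6947 measured genes. Suclg1 had a log2 difference of -0.13 in PPARα-null and 0.57 in wild-type liver, which makes a difference of -0.70 between the responses. Suclg2 had -0.37 in null and 0.30 in wild-type liver, a difference of -0.67. Cs had 0.23 in null and -0.32 in wild-type liver, a difference of 0.56. The direction of Cs in wild-type liver is not settled, since 1 of its 3 probe sets was higher in fasted than in fed liver in both genotypes (0.85 in null and 0.13 in wild-type). After centring the value of Suclg1 in null liver was 0 after rounding. With 1 array per group these differences were not tested.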

How the results depend on the processing

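The median log2 difference of the members moved by less than the scatter of probe sets under every alternative run. In the fasted comparison of genotypes it was -0.10 as reported and ranged from -0.27 without suffixed probe sets to 0.05 after centring, so its sign depends on the setting. The fasting median was 0.24 to 0.37 in PPARα-null and 0.31 to 0.58 in wild-type liver, the fed median -0.10 to -0.06, and the difference of the responses -0.19 to 0.02. Counts past the threshold are small and were less stable. At 2-fold the number lower in fasted null liver was 0, lower in fed null liver 0, higher in fasted wild-type liver 0 and higher in fasted against fed null liver 1. With quantile normalization, centring, the mean or the median of probe sets, 1 member each time was higher in the fasted null pool relative to the wild-type pool (Cs). With these and with lowess, the number higher in fasted than in fed wild-type liver was 1 in each (Ogdh). The number lower in fed null liver was 0 with the mean or median of probe sets, both of which include the dim probe sets of Idh3a, and 0 without suffixed probe sets, where 4 members stayed measured. In that setting the number higher in fasted than in fed null liver was also 0. For the difference of the responses, whose counts under alternatives were added after the values were seen, 1 member was above and 2 were below as reported. The number above was 3 with quantile normalization and with centring, 2 with lowess and with the mean or median of probe sets, and 0 without suffixed probe sets. The number below was 0 with centring and 1 without suffixed probe sets. The alternatives for the other lists were also added then. No member past the threshold changed sign. No paired analysis was possible because each group is 1 pooled array. Precision is limited throughout by having 4 arrays.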
